A study of Mus musculus with 2 samples.

Results

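The genes described here are the 37 genes of the mouse mitochondrial genome, each with a symbol that begins mt-. They were chosen by position, as the rows of both deposited gene tables whose identifier lies on chrM in the GENCODE annotation of mm10, and they make up 37 of 43346 annotated genes. The chromosome carries 13 protein genes, 2 ribosomal RNA genes and 22 transfer RNA genes. Values come from total RNA sequencing of 2 libraries of embryonic hindbrain from the mouse strain B6NCrl, which form 1 group with no contrasting condition or treatment. Replicate 1 was a pool of 69 embryos and replicate 2 a pool of 51, at 10.5 days of development, with male and female embryos mixed in each pool. Extraction used the mirVana kit, RNA was selected for more than 200 nucleotides, and each library was built from 10 ng with added spike-ins. A shared donor identifier links the pools in the labels, so differences between the libraries measure the spread between 2 pools and may be partly technical. With 1 library from each pool, no p-value is given at any point.

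Each mitochondrion holds copies of a small circular genome whose protein genes all code for subunits of the oxidative phosphorylation system. These subunits sit beside many nuclear-encoded ones in complexes I, III and IV of the respiratory chain and in complex V, the ATP synthase, while complex II is encoded in the nucleus alone. Both strands are transcribed into long precursors, most genes being read from the heavy-strand promoters, and the transfer RNAs that lie between the other genes are cut out to release them. Because the strands are copied as long units, differences in steady level between genes of one strand are generally attributed to processing and stability. Fragments of mitochondrial DNA have also entered the nuclear genome during evolution, and a recent insertion can be nearly identical to its source.

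Library depth was similar in the 2 pools, with 38170090 expected counts on annotated genes in replicate 1 and 36382245 in replicate 2. Expected counts are estimated counts in which a read that fits several genes is divided between them. TPM corrects for gene length and sums to the same total in each library. The spike-in share of TPM was 13.03% in the first pool and 7.82% in the other, so that an unchanged gene has a TPM higher by 0.08 (log2) in replicate 2. Of 12 genes fixed as hindbrain markers, 11 reached 1 TPM in both libraries, the exception being Egr2 (0.45 and 1.72 TPM), and 4 of 9 forebrain markers did so. Red blood cell markers were abundant, with a summed level of 18380 (replicate 1) and 20030 TPM (replicate 2). As in any bulk sample, a lower level can mean fewer cells of a type or less RNA per cell, and the 2 cannot be told apart.

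Mitochondrial genes abut and overlap, and the sequences below show where they do. Sequences are from the GENCODE transcripts, written 5′ to 3′ on the plus strand of mm10. In the first, at chrM:7912-7984, the capitals mark the 43 bases that belong both to the end of mt-Atp8 and to the start of mt-Atp6. In the next, at chrM:10147-10193, they mark the 7 bases shared by mt-Nd4l and mt-Nd4. In the last, at chrM:9376-9473, they mark the 68 bases of the glycine transfer RNA gene mt-Tg, with the end of mt-Co3 before them and the start of mt-Nd3 after them and no base in between.
mt-Atp8/mt-Atp6: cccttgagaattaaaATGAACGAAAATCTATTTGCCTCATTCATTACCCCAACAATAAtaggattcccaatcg
mt-Nd4l/mt-Nd4: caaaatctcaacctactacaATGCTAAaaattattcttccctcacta
mt-Co3/mt-Tg/mt-Nd3: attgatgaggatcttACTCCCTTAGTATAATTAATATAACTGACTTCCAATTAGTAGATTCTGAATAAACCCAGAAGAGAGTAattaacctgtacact

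A stretch of mouse chromosome 1 carries annotated near-identical copies of 7 of the 13 protein genes. These copies are annotated as unprocessed pseudogenes and lie side by side on the minus strand at chr1:24611535-24616197, a span of 4663 bases. Their alignments fall within chrM:6390-11042, a range that also holds mt-Atp8, for which no annotated copy was found. Only annotated transcripts were aligned, so the sequence between the copies was not compared. Of the 7, 5 had no substitution against the mitochondrial gene over their whole length: Gm28661 (a copy of mt-Co2), Gm10925 (mt-Atp6), Gm28437 (mt-Co3), Gm10222 (mt-Nd4l) and Gm28439 (part of mt-Nd4). Gm28438, the copy of mt-Nd3, differs by 1 substitution, T3C, counted from the first base of mt-Nd3. Gm29216 matches the last part of mt-Co1 and differs by 6 substitutions near its own start: T1056A, C1057T, A1059G, A1060G, C1062A and A1066T, counted from the first base of mt-Co1. The first 60 bases of mt-Co3 (chrM:8607-8666) and Gm28437 (chr1:24613912-24613971, minus strand), the first 40 bases of mt-Nd3 (chrM:9459-9498) and Gm28438 (chr1:24613080-24613119, minus strand), and 40 bases of mt-Co1 (chrM:6381-6420) beside the start of Gm29216 (chr1:24616158-24616197, minus strand) are set out in pairs because they show how few bases could assign a read. Capitals mark the bases that differ within a pair.
mt-Co3: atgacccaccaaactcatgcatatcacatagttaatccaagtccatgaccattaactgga
Gm28437: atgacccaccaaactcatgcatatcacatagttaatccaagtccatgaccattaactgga
mt-Nd3: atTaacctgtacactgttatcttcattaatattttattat
Gm28438: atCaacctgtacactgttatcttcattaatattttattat
mt-Co1: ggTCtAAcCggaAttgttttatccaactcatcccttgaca
Gm29216: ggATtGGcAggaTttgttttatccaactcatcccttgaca

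The protein genes held most of the mitochondrial counts, and the transfer RNA genes held none. Genes on chrM took 302550 counts in replicate 1 and 344703 in replicate 2, or 0.793% (95% Clopper-Pearson interval 0.790 to 0.795%) and 0.947% (0.944 to 0.951%) of the counts on annotated genes. These intervals cover counting error only, and they do not overlap. The mean share was 0.870 ± 0.109% (SD, n = 2). Within the mitochondrial counts, protein genes held 81.3% in replicate 1 and 82.1% in replicate 2, and the 2 ribosomal RNA genes held 18.7% and 17.9%.

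The 22 transfer RNA genes stood at 0 counts in both libraries, and the tables could give them none, so these zeros carry no measurement. They are 59 bases (mt-Ts2, a serine transfer RNA) to 75 bases (mt-Tl1, a leucine transfer RNA) long and sum to 1501 bases. The effective length in the tables is the length minus 99 bases, and it was 0 for each of the 22. The RNA was also selected for more than 200 nucleotides. Genes for transfer RNAs lie on both strands, 14 on the plus strand and 8 on the minus strand. The sequence of mt-Ty alone ended in CCA, the letters that mature transfer RNAs carry at their end and that are added after transcription.

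Of the remaining 15 genes, 14 had counts in both libraries. The exception was mt-Nd4l, a complex I subunit, at 0 counts in replicate 1 and 90.01 in replicate 2. As listed, the levels spanned more than an order of magnitude among the 14, and 6 genes reached 1000 TPM in both libraries.

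The ATP synthase subunits stood highest in the table as listed. The level of mt-Atp6 was 4148 (replicate 1) and 4999.7 TPM (replicate 2), which placed it at rank 9 and rank 6 among all annotated genes. Both values lay above the upper credibility bound deposited for mt-Atp6, 4073 and 4744 TPM. Its posterior mean TPM was 3360 and 3924. The level of mt-Atp8, which shares a messenger RNA with mt-Atp6, was 2987 and 3456 TPM. In counts per base of full length the difference between them was wider, with 41.6 and 43.1 counts per base for mt-Atp8 against 95.8 and 103.6 for mt-Atp6. The effective length of mt-Atp8, a gene of 204 bases, is much shorter than its full length, so its TPM depends strongly on that correction. On either scale the 2 libraries of mt-Atp8 lay below both libraries of mt-Atp6 as listed. The TPM of mt-Atp8 nevertheless lay within the deposited bounds of mt-Atp6, 2724 to 4073 in replicate 1 and 3015 to 4744 in replicate 2.

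The complex III subunit mt-Cytb, cytochrome b, stood at 1357 (replicate 1) and 1748 TPM (replicate 2). Among the complex IV subunits, mt-Co2 was at 1169.6 and 1320.3 TPM. The catalytic subunit mt-Co1 was at 774 (replicate 1) and 1366 TPM (replicate 2), the widest gap between libraries of the complex IV genes. The third member, mt-Co3, was listed at 703 and 638 TPM. Without the counts of their nuclear copies, the listed levels of mt-Co1, mt-Co2, mt-Co3, mt-Nd3 and mt-Nd4l are lower than with them.

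Among the 7 complex I subunits the level ranged widely. The membrane-arm subunit mt-Nd1 was at 1503 (replicate 1) and 1980.3 TPM (replicate 2). The next were mt-Nd4 at 496 and 599 TPM and mt-Nd2 at 281 and 368 TPM. Lower still were mt-Nd5 (199.8 and 247 TPM), mt-Nd6 (195 and 241 TPM) and mt-Nd3 (228 and 194 TPM), whose ranges overlapped. The lowest was mt-Nd4l, at 0 and 18.8 TPM. In the order by mean TPM, mt-Atp6, mt-Atp8 and mt-Nd1 followed each other, and mt-Nd1, mt-Cytb, mt-Rnr2, mt-Co2 and mt-Co1 formed a run in which the range of each overlapped that of the next. The ranges of mt-Rnr1 and mt-Nd2 also overlapped, and those of mt-Co1 and mt-Co3 did not.

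**Figure D1:**
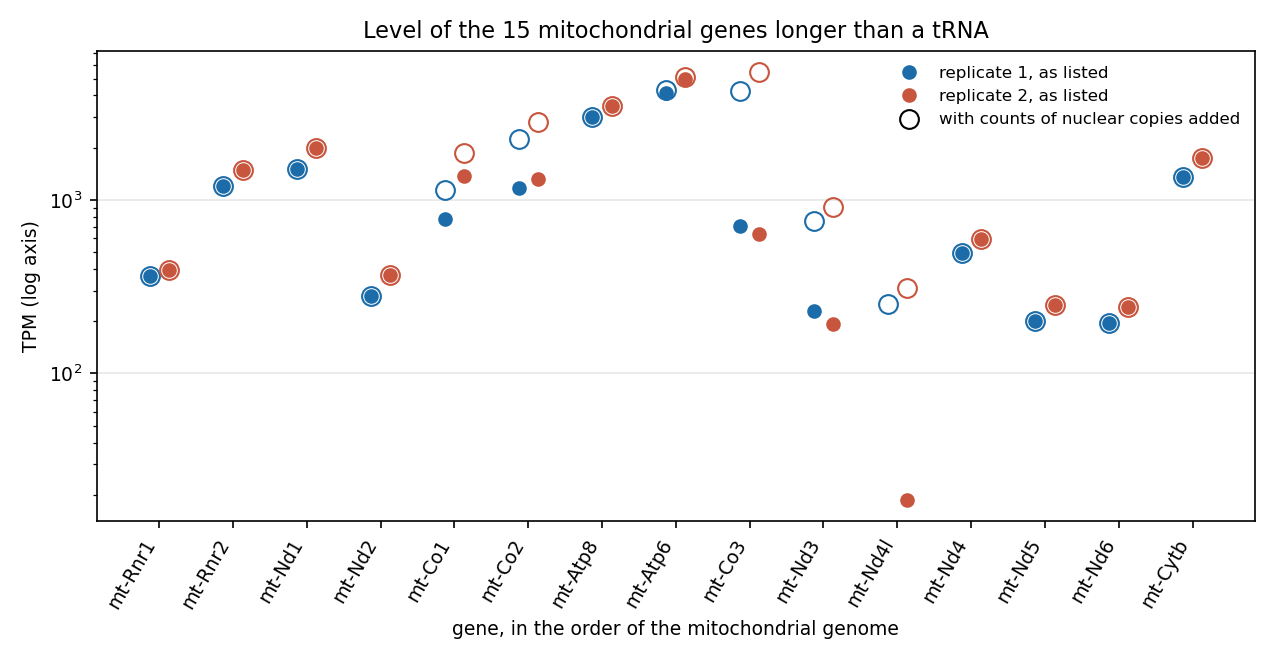
TPM on a log axis for the 15 mitochondrial genes longer than a transfer RNA, in genome order, with 1 point per library; open circles add the counts of the nuclear copies. Listed and copy-added points coincide for most genes and separate for mt-Co1, mt-Co2, mt-Co3, mt-Nd3 and mt-Nd4l; the listed value of mt-Nd4l in replicate 1 is 0 and cannot be drawn on a log axis.

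The ribosomal RNA genes were unequal. The large-subunit gene mt-Rnr2 was at 1198 (replicate 1) and 1491 TPM (replicate 2), and the small-subunit gene mt-Rnr1 at 366 and 394 TPM. Both libraries of mt-Rnr2 lay above those of mt-Rnr1, with a ratio of TPM of 3.28 and 3.78. Averaged, the pair stood at 782 TPM in replicate 1 and 942 in replicate 2, beside medians over the 13 protein genes of 703 and 638 TPM. The log2 ratio of that mean to that median was 0.15 and 0.56 (mean 0.36 ± 0.29, SD, n = 2). It was below 0 in both libraries when the nuclear copies were added, at -0.55 and -0.89, and its mean was -0.26 with posterior mean TPM, so the direction differed between these settings. Removal of ribosomal RNA before sequencing is not stated in the sources used here.

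The protein gene mt-Nd6 is the single one on the minus strand and codes for a complex I subunit. Its sequence held 5.97% C and 28.1% G on its own strand, whereas the other 12 protein genes held 22.1 to 30.0% C and 5.88 to 16.1% G. It had 2218 counts in replicate 1 and 2458 in replicate 2. The log2 ratio of its TPM to the median of the other 12 was -1.92 in replicate 1 and -2.02 in replicate 2, with a mean of -1.97 ± 0.07 (SD, n = 2), or -2.79 ± 0.16 with copies added. Of the 12, mt-Nd5 and mt-Nd3 overlapped it in TPM as listed and mt-Nd4l lay below it. It shares 14 bases with mt-Nd5 on the opposite strand. The sources used here do not state whether counting used strand, so reads of mt-Nd6 and of RNA antisense to it may not be told apart.

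Protein genes also differed in how they begin and end. Of the 13, 9 began with ATG, and mt-Nd2 began with ATA, mt-Nd5 with ATC, mt-Nd3 with ATT and mt-Nd1 with GTG. A complete stop codon closed 10 of them, while mt-Co3, mt-Nd4 and mt-Cytb ended in a lone T, a form that the poly(A) tail of mitochondrial messenger RNAs is known to complete. Across the 13 genes listed TPM had a Spearman rho of 0.05 with effective length. Across the 12 genes on the plus strand rho was -0.36 with start position. With copies added these values were -0.19 and -0.32. These are descriptions across genes of the same 2 libraries, which share depth and template, and genes are not independent replicates.

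The chromosome 1 copies together held more counts than any mitochondrial gene as listed, and they bore on some members far more than on others. Together they took 105034 counts in replicate 1 and 125516 in replicate 2. That is 25.8% (95% Clopper-Pearson interval 25.6 to 25.9%) and 26.7% (26.6 to 26.8%) of the counts on mitochondrial genes and chromosome 1 copies combined. The intervals cover counting error only and leave out the division of reads between identical sequences. The count of Gm28437 alone had a posterior SD of 41.6% (replicate 1) and 39.3% (replicate 2) of its posterior mean. At a lower identity, 4 further copies on other chromosomes (Gm13339, Gm13340, Gm13341 and Gm4076) held 27.2 and 25.4 counts together. Values given with copies added include these 4 as well as the 7 of chromosome 1. With copies added, the share of mitochondrial sequence in the counts on annotated genes was 1.07% and 1.29%.

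Of the chromosome 1 copies, Gm28437, the copy of mt-Co3, held the most counts. The row of mt-Co3 held 13016 counts in replicate 1 and 10589.5 in replicate 2, while Gm28437 held 65892 and 79882. The copy thus held 83.5% of their joint counts in replicate 1 and 88.3% in replicate 2. The posterior SD of the mt-Co3 count in the authors' tables was 61.8% and 73.4% of its posterior mean. The deposited credibility bounds of its TPM ran from 585 to 3483 in replicate 1 and from 296 to 4255 in replicate 2, at a level the files do not state. With the copy added, mt-Co3 reached 4262 and 5449 TPM, 7.24-fold its listed mean, and took first place among the members, though its range overlapped that of mt-Atp6.

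The copies of the smaller complex I genes also held most of the joint counts. The row of mt-Nd3 held 1535 and 1171 counts, and Gm28438 held 3545 and 4353, or 69.8% and 78.8% of the sum. For mt-Nd4l the copy Gm10222 held 1338 counts in replicate 1, which was the whole sum, and 1402 in replicate 2, which was 94.0% of it. The posterior mean count of mt-Nd4l was 121 in replicate 1 and 160 in replicate 2. Its posterior SD was 103% and 67.3% of that mean. With copies added, mt-Nd3 was at 755 and 915 TPM and mt-Nd4l at 250.0 and 311 TPM, both in the range of the other complex I members. Gm28439 held 0 counts in both libraries, and the mt-Nd4 count had a posterior SD of 0.018% and 0.015% of its mean.

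In complex IV, mt-Co2 held 18494 and 18719 counts beside 16879.99 and 20939 for Gm28661, so that the copy held 47.7% and 52.8%. With copies added mt-Co2 was at 2238 and 2798 TPM. For mt-Co1 the row held 30265 and 47858 counts and Gm29216 held 14598 and 17366, or 32.5% and 26.6% of the sum. Here the posterior SD was small, 0.28% and 0.22% of the mt-Co1 mean and 0.58% and 0.60% of the Gm29216 mean. Gm29216 differs from mt-Co1 only by the 6 substitutions near its start. A small SD therefore need not mean that single reads could be told apart. With copies added mt-Co1 was at 1148 and 1861 TPM.

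For mt-Atp6 the copy held few of the listed counts but more in the posterior mean. The row held 65253 and 70525 counts, and Gm10925 held 2780.07 and 1573, or 4.09% and 2.18% of the sum. The posterior mean count of Gm10925 in replicate 1 was 14034, with a posterior SD of 53.9% of that mean. With the copy added mt-Atp6 was at 4325 and 5111 TPM, 1.03-fold its listed mean. Over the 15 genes the posterior SD was at least 10% of the mean for 5 (mt-Co2, mt-Atp6, mt-Co3, mt-Nd3 and mt-Nd4l) and under 1% for the other 10. A sum over a gene and its copy does not depend on how reads were divided between them, but it also holds any RNA made from the nuclear copy, and the 2 sources cannot be told apart in these tables.

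**Figure D2:**
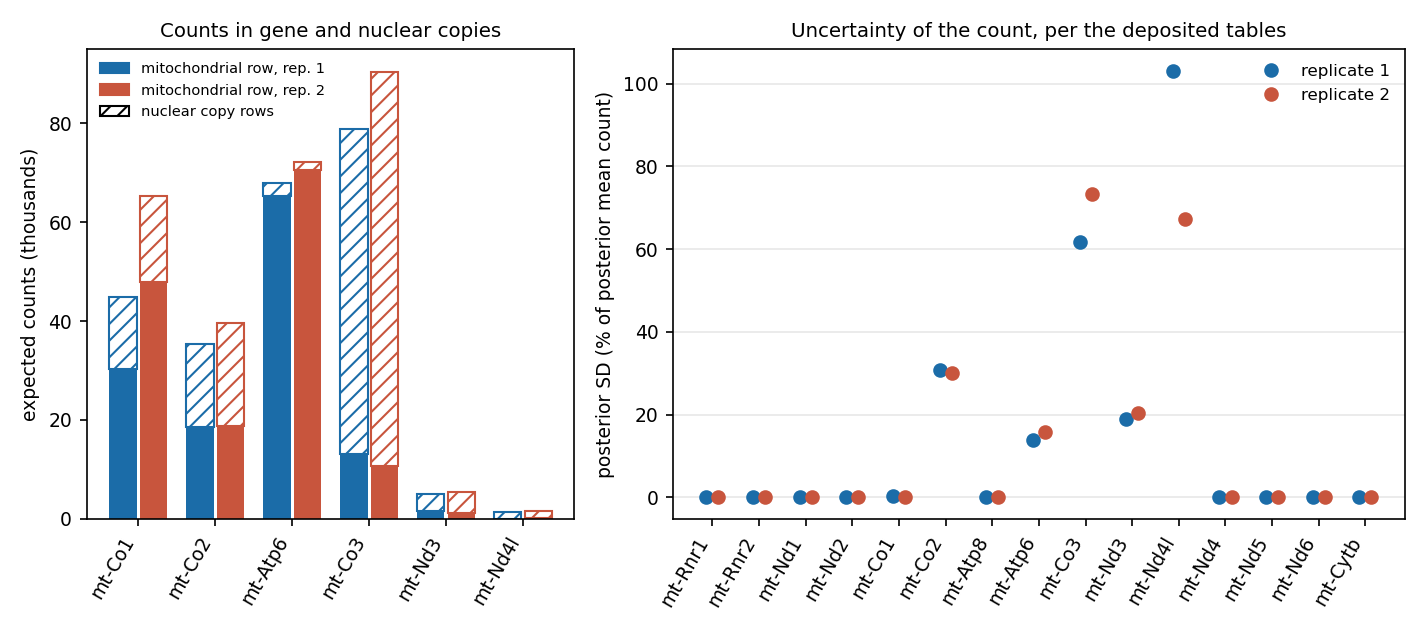
Left, expected counts (in units of 1000) per library for 6 genes, with the mitochondrial row solid and its nuclear copies hatched; right, the posterior SD of each count as a percent of its posterior mean, with 1 point per library. The hatched part is the larger one in both libraries for mt-Co3, mt-Nd3 and mt-Nd4l and in replicate 2 for mt-Co2, and 5 genes have a posterior SD of at least 10%.

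The order of the complexes by share of the mitochondrial protein counts depended on the copies. As listed, complex V held 29.97% in replicate 1 and 28.03% in replicate 2, complex I 29.3% and 29.05%, complex IV 25.1% and 27.3%, and complex III 15.6% in both. With copies added, complex IV held the largest share. The 3 complex IV genes held 45.3% and 47.8%, the 7 complex I genes 22.0% and 21.5%, the complex V genes 21.8% and 19.8%, and mt-Cytb of complex III 10.9% and 10.8%. By number of counts mt-Co3 held 19.4% and 19.2% of all mitochondrial counts with copies added, and mt-Atp6 16.7% and 15.3%. As listed, mt-Co3 held 4.30% and 3.07% and mt-Atp6 21.6% and 20.5%.

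Nuclear subunits of the same complexes gave a scale for these levels. In complex V, both mitochondrial genes stood above each of the 13 nuclear genes found in the tables, of which Atp5b, the catalytic beta subunit, was highest (1794 and 1924 TPM) and Atp5l lowest (148 and 153.5 TPM). The median of the 2 mitochondrial genes was 8.14-fold that of the nuclear genes. In complex III, mt-Cytb stood above each of 9 nuclear genes, led by Uqcr10 (567 and 587 TPM). In complex IV, mt-Co1 and mt-Co2 had mean levels above each of 11 nuclear genes, led by Cox6b1 (916 and 843 TPM). In replicate 1 alone, mt-Co1 as listed (774 TPM) lay below Cox6b1, Cox4i1 (847 TPM) and Cox6a1 (812 TPM). With copies added, mt-Co3 also had a mean level above each nuclear gene. The fold of the medians was 1.59 in complex IV as listed and 3.75 with copies added. Copies were added to the mitochondrial genes only. Copies of the nuclear subunit genes were not looked for, so nuclear values are as listed throughout.

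Complex I was different in that its 7 mitochondrial genes lay within the range of the 36 nuclear ones, from Ndufb4 (41.6 and 37.7 TPM) to Ndufab1 (613 and 648 TPM), with exceptions at both ends. The mean level of mt-Nd1 stood above them all and the listed mean of mt-Nd4l below them all. Medians over the complex were 228 and 247 TPM for the mitochondrial genes and 242 and 241 TPM for the nuclear ones. With copies added, mt-Nd3 also stood above the nuclear genes, mt-Nd4l no longer stood below them, and the mitochondrial medians were 281 and 368 TPM.

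**Figure D3:**
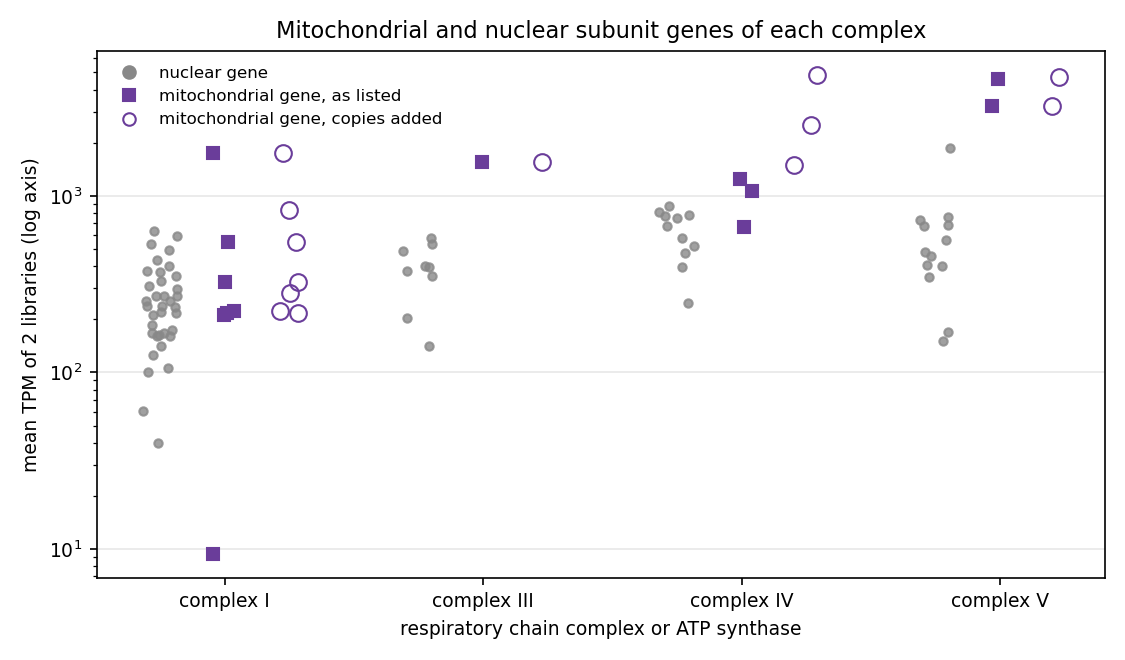
Mean TPM of the 2 libraries on a log axis for each subunit gene of complexes I, III, IV and V; grey points are nuclear genes, squares are mitochondrial genes as listed and open circles are mitochondrial genes with copies added (points are spread sideways for visibility). The mitochondrial genes of complexes III and V stand above each nuclear gene of the same complex, and those of complex I mostly lie among them.

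Between the pools the mitochondrial genes differed modestly and mostly in one direction. Ratios are log2 of replicate 2 over replicate 1 in CPM (counts scaled to library size) after TMM scaling, a normalisation on the bulk of genes, with a prior count of 2, for genes with at least 1 CPM in both libraries. Of the 37 genes, 14 passed that filter, and 12 of the 14 were higher in replicate 2, beside 49.9% of all 14385 genes tested, while 2 were lower, beside 50.1%. The median over the 14 was 0.21, and the median over all genes tested was -0.001. None of the 14 was at least 2-fold higher (0.792% of all genes) or at least 2-fold lower (3.61% of all genes) in replicate 2.

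The largest ratio was that of mt-Co1, at 0.74, the single member at least 1.5-fold higher in replicate 2, where 4.03% of all genes were. The rows of mt-Co1 and Gm29216 moved by different amounts, the copy having a ratio of 0.33, and with copies added mt-Co1 stood at 0.62. It was then still the single member past 1.5-fold. The next members were mt-Nd1 at 0.32, mt-Nd2 at 0.31 and mt-Cytb at 0.29. At the other end mt-Rnr1 stood at 0.03 and mt-Co2, as listed, at 0.10; with copies added mt-Co2 stood at 0.24. Values for mt-Rnr2 (0.24), mt-Nd5 (0.23), mt-Nd6 (0.23), mt-Nd4 (0.19), mt-Atp6 (0.19) and mt-Atp8 (0.13) lay in between.

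As listed, the exceptions in direction were mt-Co3 at -0.22 and mt-Nd3 at -0.31. Both turned positive when their copies were added, to 0.28 and 0.20. Without copies, the posterior mean TPM of mt-Co3 was higher in replicate 2, at 1678 (replicate 1) and 1856 (replicate 2). For mt-Nd3 it was lower, at 218 and 189. The posterior mean count of mt-Co3 was 31735 and 31560. With copies added mt-Nd4l also passed the filter, at 0.24, and 15 of 15 members were higher in replicate 2 (49.8% of all genes), with a median of 0.23 and a range from 0.03 for mt-Rnr1 to 0.62 for mt-Co1. Of the copies, Gm28437, Gm28438 and Gm28661 had ratios of 0.36, 0.37 and 0.39, and Gm10925 one of -0.74. The posterior mean count of Gm10925 was instead higher in replicate 2, at 14034 (replicate 1) and 15425 (replicate 2). Its posterior SD was 53.9% and 58.5% of that mean. Scaling on the spike-ins moved the median of the members to 1.00 and that of all genes tested to 0.79, and with it mt-Co3 stood at 0.58 and mt-Nd3 at 0.48. Relative to the median of all genes these were -0.22 and -0.31, as under TMM scaling.

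**Figure D4:**
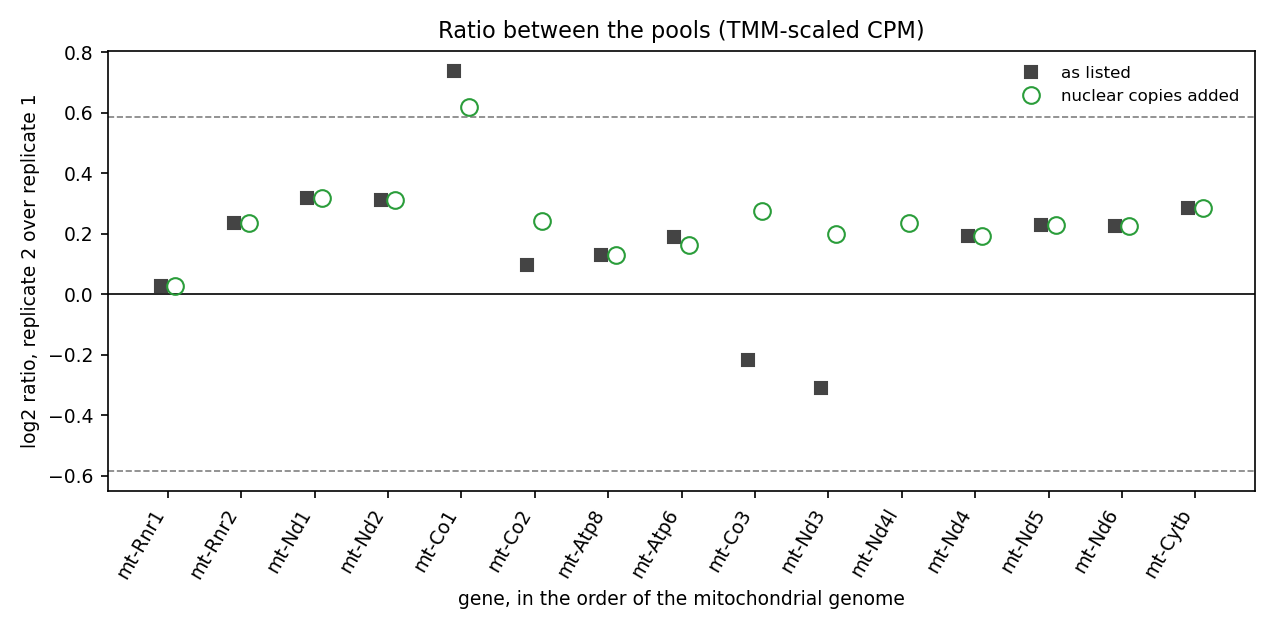
Log2 ratio of replicate 2 over replicate 1 for each mitochondrial gene in genome order, as listed (squares) and with copies added (circles); dashed lines mark 1.5-fold in either direction. As listed, mt-Co3 (-0.22) and mt-Nd3 (-0.31) lie below 0; with copies added no gene does, and mt-Co1 stays highest at 0.62. The gene mt-Nd4l has a value with copies added only.

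Most nuclear subunits of the same complexes lay on the other side of 0. Of the 69 nuclear genes of complexes I, III, IV and V in the tables, 11 were higher and 58 lower in replicate 2. Of all genes tested, 49.9% were higher and 50.1% lower. The median ratio of the 69 was -0.08. The counts were 6 of 36 higher in complex I, 1 of 9 in complex III, 0 of 11 in complex IV and 4 of 13 in complex V. None was 1.5-fold higher or lower, where 4.03% of all genes were higher and 9.4% lower by that much. The range ran from -0.27 (Atp5e) to 0.11 (Atp5g3). Complex II, which has no mitochondrial gene, had 2 of 4 higher, from Sdhb at -0.25 to Sdha at 0.27. Both the mitochondrial and the nuclear medians lie within 1.5-fold of no difference, and the difference between them has no replicate check.

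Genes that copy and transcribe the mitochondrial genome were mostly higher in replicate 2, with 13 of 16 higher, beside 49.9% of all genes, and a median ratio of 0.18. Tfam, which packages the genome and starts transcription, was at 53.0 (replicate 1) and 65.3 TPM (replicate 2) (ratio 0.31). The mitochondrial RNA polymerase Polrmt was at 37.8 and 44.1 TPM (0.15) and its initiation factor Tfb2m at 14.6 and 18.5 TPM (0.27). The highest of the list was the single-stranded DNA binding protein Ssbp1, at 138 and 166 TPM. Mterf1b, of the transcription termination factor family, was the single gene of the nuclear lists at least 1.5-fold higher, where 4.03% of all genes were, at 1.41 and 2.82 TPM, and was also the lowest in level.

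Genes that process and stabilise mitochondrial RNA were divided, with 17 of 29 higher, beside 49.9% of all genes, and a median of 0.07. Lrpprc, which stabilises mitochondrial messenger RNAs, was at 36.1 and 41.9 TPM (0.15), and its partner Slirp at 248 TPM in both libraries (-0.05). The poly(A) polymerase Mtpap was at 25.2 and 25.3 TPM (-0.07). Pnpt1, an exoribonuclease of mitochondria, had the largest ratio of the list (0.42), and the ribosomal RNA methyltransferase Nsun4 the smallest (-0.28). Of 77 mitochondrial ribosomal protein genes tested, 39 were higher and 38 lower, near the 49.9% and 50.1% of all genes. Their median was 0.00, from Mrps24 at -0.33 to Mrps18b at 0.23.

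Markers of cell state moved between the pools as well. Of 14 neuronal markers 13 were lower in replicate 2, beside 50.1% of all genes tested. They had a median ratio of -0.83, a range from -1.73 to 0.91, and a summed level of 2477 (replicate 1) and 1645 TPM (replicate 2). The cell cycle list was higher in replicate 2 for 12 of 12 genes, beside 49.9% of all genes tested. It had a median ratio of 0.34 and a summed level of 2051 and 2721 TPM. Red blood cell markers had a median ratio of 0.07 and progenitor markers one of -0.13. Macrophage markers were low, with a summed level of 60.5 and 39.6 TPM and a median ratio of -0.64. Muscle and heart markers were low but higher in replicate 2, with a summed level of 7.80 and 31.2 TPM, led by Actc1 (5.04 and 13.9 TPM) and Myl7 (2.11 and 12.4 TPM). Of these markers only Actc1 passed the filter on low counts, with a ratio of 1.38. Of the hindbrain markers, 9 of 11 were lower in replicate 2, beside 50.1% of all genes tested. Their median ratio was -0.28, with Hoxa3 lowest at -1.42. Forebrain, endothelial and mesenchymal markers had medians of -0.08, 0.12 and -0.17. The part of these differences in the ratios of the mitochondrial genes was not tested.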

How the data were processed

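Per the file headers, the deposited gene tables hold for each library an expected count (an estimated count, not whole), TPM, FPKM, a posterior mean and SD of the count, and credibility bounds. The deposited file notes name assembly mm10 and annotation M4. Neither aligner nor quantifier is given in the sources used here. The authors' values were used as deposited, and expected counts were rounded for edgeR and DESeq2. Symbols, positions and transcripts came from GENCODE M21, also on mm10; 97.96% of gene identifiers matched a symbol, and the deposited length of the 37 members equalled the M21 span. The chrM sequence was rebuilt from its transcripts, and nuclear transcripts were aligned to it (blastn 2.17.0; copies at 95% identity over 80% of length).

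Ratios used edgeR 4.0.16 in R 4.3.3 (TMM, prior count 2, at least 1 CPM in both libraries), and DESeq2 1.42.0 supplied other size factors. The ratio script was tested on simulated data. Copy-added TPM used the summed counts at the effective length of the mitochondrial gene. With 1 group of 2 libraries nothing was tested; values are mean ± SD, shares carry Clopper-Pearson intervals. Named were the 37 members, their copies, the extremes of each nuclear list in level and ratio, and 6 factors of mitochondrial RNA. Members and lists were chosen with earlier results of these data known. Atp5o, Atp5pb and Mrpl33 were not matched in the lists.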

Additional observations from a re-analysis of the deposited data

How the results depend on the processing

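Of 21 alternative values of levels and shares, 9 stayed within the SD of the 2 libraries, 10 moved beyond it and 2 changed sign. Ratios between pools have no such spread; against counting error alone, 6 of 8 alternatives of their median moved. The mean mitochondrial share of 0.870% was 1.93% in TPM and 1.18% with copies added. The log2 level of mt-Atp6 over the protein median, 2.77 as listed, was 1.85 with posterior mean TPM and 1.73 with copies added. The ribosomal RNA to protein ratio of 0.36 changed sign, to -0.26 with posterior mean TPM and -0.72 with copies added. The value for mt-Nd6, -1.97, was -2.47 with posterior mean TPM, -2.10 in counts per base and -2.79 with copies added. The ribosomal RNA share of mitochondrial counts, 18.3%, was 9.96% in TPM and 13.5% with copies added, the last being chosen after seeing the data. The mt-Atp6 share of 21.01% was 25.7% of protein counts. The median ratio between pools, 0.21, was 0.19 at 10 CPM, 0.24 unfiltered, 0.23 with copies added, 1.00 on spike-ins, 0.20 on total counts and 0.29 in TPM. Spike-in scaling, which moves the median of all genes by 0.79, also put 177 nuclear partner genes past 1.5-fold against 1. In single genes, mt-Co3 and mt-Nd3 changed sign, to 0.28 and 0.20 with copies added. On spike-ins they stood at 0.58 and 0.48, a sign set by the shift of all genes. Relative to the median of all genes they stayed at -0.22 and -0.31. In posterior mean TPM mt-Co3 was instead higher in replicate 2, and mt-Nd3 was lower. For the other changes the cause was not tested.

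With 2 libraries, leaving one out always stays within their SD and shows nothing of stability; it gave ranges of 0.793 to 0.947% for the mitochondrial share, 2.56 to 2.97 for mt-Atp6, 0.15 to 0.56 for ribosomal RNA, -2.02 to -1.92 for mt-Nd6, 17.9 to 18.7% for the ribosomal RNA share, 20.5 to 21.6% for the mt-Atp6 share and 25.8 to 26.7% for the copies. It could not be done for ratios between the pools. No paired analysis was possible because there is 1 group. The smallest count among the 14 genes with counts in both libraries was 1171 (mt-Nd3, replicate 2).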
